A study of Mus musculus with 9 samples.

Results

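Neat1, Malat1, Kcnq1ot1, Gas5, Snhg1, Snhg12, Meg3 and Mir155hg are 8 long non-coding RNA genes that were described together in RNA from cultured mouse microglia, the resident macrophages of the brain. The genes were listed by name, out of 54119 genes in the count table, and all 8 were among the 16273 genes whose counts were high enough to be tested. Neat1 and Kcnq1ot1 were chosen by their lower values after siRNA in these same libraries, so their siRNA contrasts are given as values with standard errors and no test. The other 6 were listed as known regulatory RNAs or host genes of small RNAs, though the list was made with earlier results of these data known.

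Primary microglia came from C57BL/6J mouse brain at embryonic day 18, were shaken off mixed glial cultures, and were transfected with control siRNA, Chd8 siRNA or Tsc2 siRNA before RNA was extracted. Each of the 3 groups had 3 libraries, numbered 1 to 3. Chd8 encodes a chromatin remodeller and Tsc2 a brake on mTOR signalling, and both are autism risk genes. All 3 groups carried an siRNA and a transfection reagent, so no group was untouched. The study's text places lipopolysaccharide stimulation before the sequencing, while its RNA-seq methods and the sample labels give only the siRNA treatment. Per the study's methods, every biological replicate was a culture from its own brain, and whether a replicate number marks the same brain in all 3 groups is not given.

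The 9 libraries held 16913448 to 33213801 estimated counts. Chd8 was at 93.6 to 118 normalized CPM (estimated counts per unit of effective library size) in the control libraries and 38.3 to 86.8 CPM after Chd8 siRNA, and Tsc2 was at 38.9 to 40.8 CPM in the controls and 24.6 to 36.5 CPM after Tsc2 siRNA, so each target was lower in every library treated with its siRNA. Summed over 7 microglia markers, the level was 872 to 1428 CPM in the controls, 914 to 1435 CPM after Chd8 siRNA and 1009 to 1347 CPM after Tsc2 siRNA. Csf1r and Itgam made up most of this sum, whereas P2ry12 stayed between 0.686 and 2.78 CPM and Tmem119 was too low to be tested. In bulk RNA, fewer cells of a type and less RNA per cell cannot be told apart. Markers of astrocytes summed to 11.6 to 14.4 CPM in the replicate 1 libraries, 23.3 to 26.4 CPM in replicate 2 and 46.6 to 106 CPM in replicate 3, with control replicate 3 the highest.

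Long non-coding RNAs are transcripts that act as RNA or carry smaller RNAs within them. Neat1 is the scaffold of paraspeckles, nuclear bodies that hold RNA-binding proteins, and only its long form builds them. Malat1 is its neighbour and gathers in nuclear speckles beside splicing factors. Kcnq1ot1 is transcribed from the paternal chromosome and silences imprinted genes around it, and Meg3 is the maternally expressed RNA of a second imprinted domain. Gas5, Snhg1 and Snhg12 carry small nucleolar RNAs (snoRNAs) in their introns, and their spliced RNAs are degraded in a translation-dependent way. Mir155hg is the precursor of miR-155, a microRNA induced when macrophages and microglia are activated.

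The sequences below show the features by which these RNAs differ and on which the counts depend. Neat1 lies on the minus strand at chr19:5824708-5845478 (GRCm38) and is annotated with a long form of 20771 bases in 1 exon and a short form of 3004 bases that ends at base 3172 of the long form. The first sequence holds the last 60 bases of the short form followed by 20 bases found only in the long form, at chr19:5842287-5842366, with the polyadenylation signal AATAAA in capitals. The next pair of sequences comes from the end of the Neat1 long form (chr19:5824708-5824767) and from the A-rich tract of Malat1 (chr19:5795982-5796041), both on the minus strand, with the letters shared at their ends in capitals.
Neat1 short-form end: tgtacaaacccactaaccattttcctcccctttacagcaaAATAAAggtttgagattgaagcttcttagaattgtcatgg
Neat1 long-form end: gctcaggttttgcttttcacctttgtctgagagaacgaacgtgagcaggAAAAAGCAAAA
Malat1 A-rich tract: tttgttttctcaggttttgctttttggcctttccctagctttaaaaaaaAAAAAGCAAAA
The shared run is 11 bases long and occurs once in the full-length Malat1 transcript, whose annotated sequence runs on for 292 bases beyond it. Such A-rich ends fold back on upstream U-rich stretches and protect RNAs that have no poly(A) tail, a textbook property of both genes. A library made from total RNA can hold such RNAs, and one selected for poly(A) would not hold them equally.

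Mir155hg lies at chr16:84703167-84715245 on the plus strand, with the miR-155 hairpin inside it. Both mature microRNAs are given by RefSeq (GRCm38.p6), with their seeds, bases 2 to 8, in capitals.
mmu-miR-155-5p: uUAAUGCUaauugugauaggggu
mmu-miR-155-3p: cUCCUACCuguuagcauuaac
The 2 arms have different seeds and so different sets of possible targets. The hairpin itself was listed at 0 counts in every library, and the values below are those of the host transcript.

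Genes that host snoRNAs often start with a run of pyrimidines, the feature by which growth signals set the translation of ribosomal protein mRNAs. The windows below run from 20 bases before to 30 after each RefSeq start, with the longest pyrimidine run near the start in capitals.
Gas5, chr1:161035146-161035195: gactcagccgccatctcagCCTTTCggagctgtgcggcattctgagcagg
Snhg1, chr19:8723467-8723516: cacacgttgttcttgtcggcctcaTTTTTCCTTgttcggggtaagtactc
Snhg12, chr4:132308658-132308707: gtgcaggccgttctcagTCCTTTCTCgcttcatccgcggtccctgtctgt
The run was 9 bases long in Snhg1 and Snhg12, a length reached in 12.6% of 32851 RefSeq promoters, and 6 bases in Gas5, reached in 43.0%. A second Gas5 start in RefSeq had a run of 3 bases.

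Kcnq1ot1 is annotated as 1 exon of 93092 bases at chr7:143203458-143296549 on the minus strand, and its start lies in a window with 3 copies of CCAAT, 188, 148 and 67 bases upstream, shown in capitals (chr7:143296498-143296797, minus strand).
Kcnq1ot1 promoter: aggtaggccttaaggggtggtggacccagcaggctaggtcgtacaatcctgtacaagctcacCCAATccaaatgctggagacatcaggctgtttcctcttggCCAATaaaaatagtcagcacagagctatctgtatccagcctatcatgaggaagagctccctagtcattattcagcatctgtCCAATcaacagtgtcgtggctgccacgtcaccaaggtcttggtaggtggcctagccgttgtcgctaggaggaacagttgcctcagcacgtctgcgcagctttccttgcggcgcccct
CCAAT was searched on both strands in windows of 300 bases, and 37.4% of RefSeq promoters held at least 1 copy, while 3.37% held at least 3. RefSeq windows were found for 7 of the 8 genes. Other motifs searched on both strands were the cyclic AMP response element (TGACGTCA), the TATA box (TATAAA), the E-box (CACGTG), the AP-1 site (TGANTCA) and the GC box (GGGCGG), and the Kcnq1ot1 window held none of them. Of the other RNAs, Gas5 and Meg3 each had 1 window with the cyclic AMP response element, which 1.79% of all promoters hold.

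Compared per kilobase of transcript, the 8 RNAs covered a wide span. Malat1 stood at 1471 CPM per kilobase in the mean of 9 libraries, the 4th highest of all long non-coding RNA genes. Mir155hg followed at 51.5, Neat1 at 37.0 and Gas5 at 11.1 CPM per kilobase. Snhg1 was at 3.65, Snhg12 at 2.62, Meg3 at 0.639 and Kcnq1ot1, with its very long exon, at 0.230 CPM per kilobase. All other levels below are normalized CPM, which are not corrected for length.

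**Figure D1:**
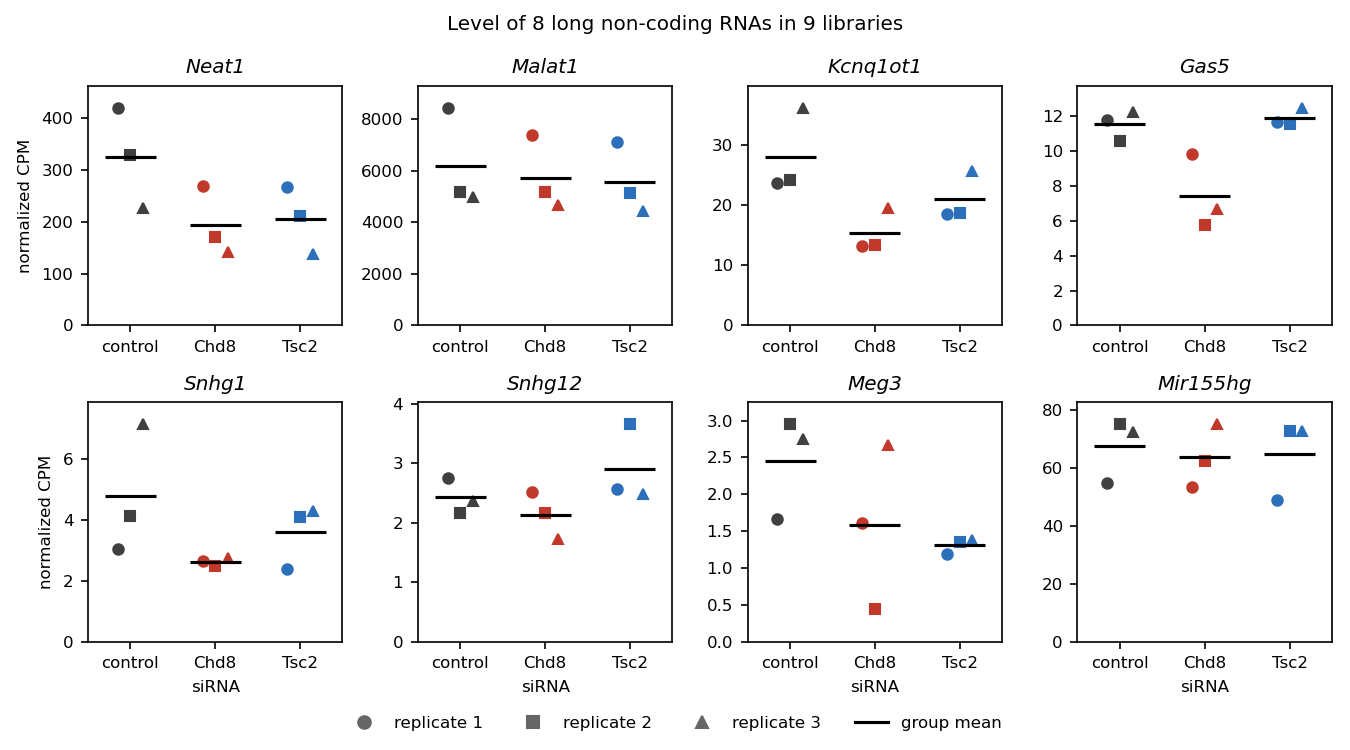
Normalized CPM of the 8 RNAs (vertical axes, each from 0) in the 9 libraries by siRNA (horizontal axes), with symbols for the replicate numbers and bars for group means. Gas5 and Snhg1 were lower in all 3 Chd8 siRNA libraries than in any control, as were 4.92% of all tested genes, and Malat1 and Neat1 were highest in replicate 1 of every group.

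Neat1 was lower after either siRNA at every replicate number. The control libraries had 420, 329 and 226 CPM for replicates 1, 2 and 3. After Chd8 siRNA the values were 269, 170 and 142 CPM, and after Tsc2 siRNA 267, 211 and 137 CPM. The groups overlapped, because replicate 3 of the control lay below replicate 1 of both knockdowns, but within each number the control was the highest. The group means were 325 ± 96.7, 193 ± 66.8 and 205 ± 65.1 CPM (SD, n = 3 each), and the log2 fold changes against control were -0.75 (SE 0.31) for Chd8 siRNA and -0.66 (SE 0.31) for Tsc2 siRNA. With the replicate number as a block, they were -0.76 (SE 0.08) and -0.67 (SE 0.08). Being lower at all 3 numbers was common, found for 18.3% of tested genes after Chd8 siRNA and 16.3% after Tsc2 siRNA. The controls are the same 3 libraries in both contrasts, so the 2 values are not independent.

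The gene total by which Neat1 was chosen is a sum over its forms, so their values describe that total and are no separate support for it. Over all libraries the long form took 64.8% of Neat1 counts and the short form 33.8%. The long form had 296, 256 and 157 CPM in control replicates 1, 2 and 3. It had 159, 113 and 83.7 CPM after Chd8 siRNA, and 160, 137 and 69.6 CPM after Tsc2 siRNA. In each number the knockdowns lay well below the control, with mean log2 ratios of -0.99 ± 0.16 for Chd8 and -0.99 ± 0.16 for Tsc2 (SD, n = 3 numbers). The short form had 120, 67.9 and 69.8 CPM in the controls, 103, 56.1 and 57.8 CPM after Chd8 siRNA and 98.6, 73.5 and 64.1 CPM after Tsc2 siRNA. Its mean log2 ratios were smaller, at -0.26 ± 0.03 and -0.10 ± 0.20, and with Tsc2 siRNA replicate 2 was higher than its control.

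The ratio of long-form to short-form counts is taken within a library and so needs no scaling between libraries. It was 2.46, 3.78 and 2.24 in the control replicates. It was 1.55, 2.01 and 1.45 after Chd8 siRNA and 1.62, 1.87 and 1.09 after Tsc2 siRNA. Every knockdown library thus lay below every control library. How often this holds for ratios between forms of other genes was not computed, so nothing is read from it. The long form took 72.5% ± 4.63 of Neat1 counts in the controls, 61.6% ± 4.28 after Chd8 siRNA and 58.5% ± 7.30 after Tsc2 siRNA (SD, n = 3 each), and divided by transcript length its share was 26.7% ± 3.57, 18.4% ± 3.26 and 16.3% ± 4.72. No test was made on these values, which come from the same contrast as the choice of Neat1. The split between the forms is an estimate of the quantifier, since reads in the shared first part can belong to either.

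**Figure D2:**
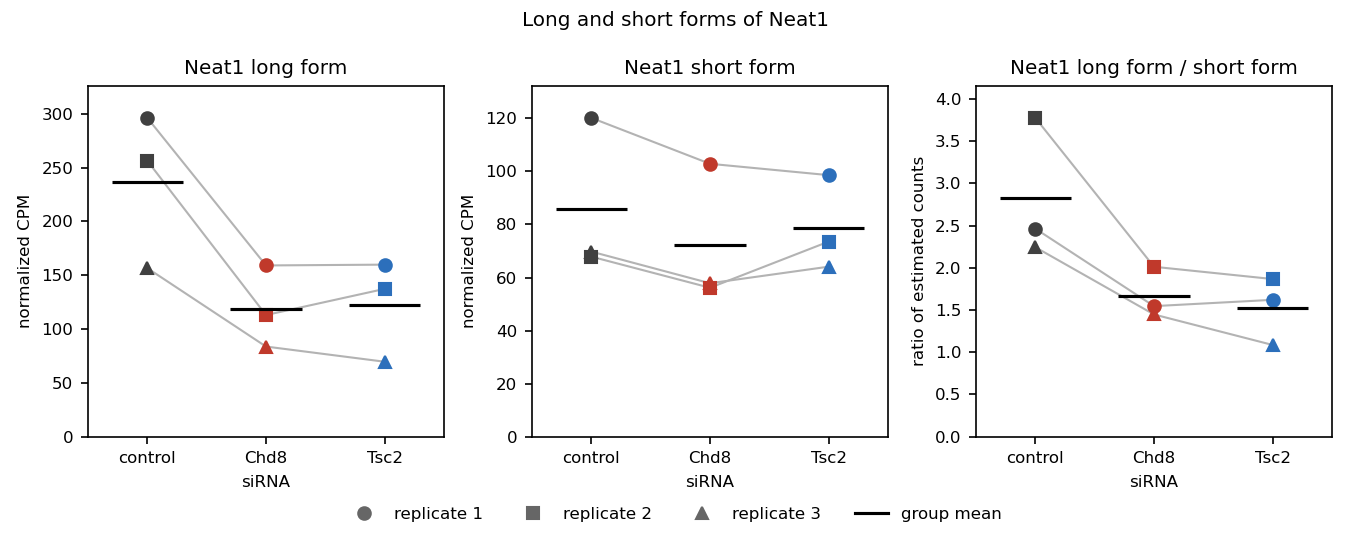
Normalized CPM of the Neat1 long form (left) and short form (middle) and the ratio of their estimated counts (right), by siRNA, with grey lines joining libraries of one replicate number and black bars for group means. The ratio was 2.24 or more in the controls and 2.01 or less in all 6 knockdown libraries, and such ratios were not computed for other genes.

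Paraspeckle proteins, the partners of Neat1, were measured alongside it. None of the 11 tested was called in either contrast, and their median log2 fold changes with the block were 0.01 in the Chd8 contrast and 0.00 in the Tsc2 contrast, beside -0.02 and -0.01 over all genes tested. Nono, a core paraspeckle protein, was at 305 ± 18.8 CPM in the controls, 340 ± 25.6 CPM after Chd8 siRNA and 327 ± 33.8 CPM after Tsc2 siRNA (SD, n = 3 each). Sfpq, its partner, was at 243 ± 23.6, 210 ± 16.7 and 242 ± 10.3 CPM. The genes whose levels followed Neat1 most closely over the 9 libraries were Vti1a (Pearson r = 0.947), Cpeb2 (r = 0.945) and Dock6 (r = 0.941), a description over libraries that share replicate numbers.

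Malat1, the neighbour of Neat1 on the same strand (chr19:5795690-5802672), differed little between the siRNA groups. Control replicates 1, 2 and 3 had 8441, 5167 and 4988 CPM. The Chd8 siRNA libraries had 7369, 5171 and 4670 CPM, and the Tsc2 siRNA libraries 7112, 5134 and 4456 CPM. Replicate 1 was far above the others in each group and the groups overlapped. The log2 fold changes with the block were -0.10 (SE 0.05) for Chd8 siRNA and -0.14 (SE 0.05) for Tsc2 siRNA with edgeR adjusted p of 0.490 and 0.350. The full-length transcript held 94.3% of its counts, and a short model of 485 bases held 5.74%. None of 10 nuclear speckle and SR splicing factors was called in either contrast.

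Kcnq1ot1 was lower after Chd8 siRNA than in any control library. The controls had 23.7, 24.1 and 36.1 CPM for replicates 1, 2 and 3, and the Chd8 siRNA libraries 13.2, 13.3 and 19.4 CPM. After Tsc2 siRNA it had 18.6, 18.7 and 25.7 CPM. Chd8 and control libraries did not overlap, as held for 4.92% of all tested genes in this direction and from which nothing is read for a gene chosen by these values, while Tsc2 replicate 3 lay above control replicates 1 and 2. The group means were 28.0 ± 7.04, 15.3 ± 3.56 and 21.0 ± 4.08 CPM (SD, n = 3 each), and the log2 ratio of Chd8 siRNA to control was nearly the same at each number, -0.85, -0.86 and -0.90. The fitted log2 fold changes were -0.87 (SE 0.24) for Chd8 siRNA and -0.41 (SE 0.24) for Tsc2 siRNA, with standard errors of 0.12 in both contrasts with the block. Leaving out control replicate 3, the highest library and the one with the most astrocyte marker RNA, gave -0.64 for Chd8 siRNA and -0.19 for Tsc2 siRNA without the block, and -0.84 and -0.37 with it. The part of other cell types in this result was not tested.

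The imprinted domain around Kcnq1ot1 was measured in part. Of its 11 listed genes, 5 were high enough to be tested and none was called in any contrast. Cd81 and Nap1l4, the most abundant of them, were at 59.2 ± 18.3 and 56.6 ± 11.3 CPM in the controls (SD, n = 3). Kcnq1, which spans Kcnq1ot1 entirely on the other strand, and Phlda2 had no counts in any library. Strandedness of the counting is not given in the sources used here, and without it, reads from Kcnq1 introns could not be told apart from Kcnq1ot1. Ttc3 (Pearson r = 0.973), Yars2 (r = 0.966) and Gm48137 (r = 0.965) followed Kcnq1ot1 most closely over the 9 libraries.

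Gas5, a snoRNA host whose RNA is also known to bind the glucocorticoid receptor, was lower after Chd8 siRNA than in either other group. Control replicates 1, 2 and 3 had 11.7, 10.5 and 12.2 CPM, Chd8 siRNA libraries 9.81, 5.74 and 6.66 CPM, and Tsc2 siRNA libraries 11.7, 11.5 and 12.4 CPM. All 3 Chd8 libraries lay below all 6 others. The means were 11.5 ± 0.873, 7.41 ± 2.14 and 11.9 ± 0.495 CPM (SD, n = 3 each). The log2 fold change of Chd8 siRNA against control was -0.63 (SE 0.22) with an edgeR adjusted p of 1.00, and -0.64 (SE 0.19) with the block, adjusted p = 0.132. Against Tsc2 siRNA it was -0.68 (SE 0.22) and with the block -0.70 (SE 0.19), with edgeR adjusted p of 1.00 and 0.142. The difference did not pass the threshold in either contrast. Tsc2 siRNA against control gave 0.05 (SE 0.22).

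The transcript make-up of Gas5 leaned on models with a retained intron, which held 83.3% ± 6.08 of its counts in the controls, 69.5% ± 11.4 after Chd8 siRNA and 73.2% ± 2.38 after Tsc2 siRNA (SD, n = 3 each). In Snhg1 such models held 61.3% ± 18.3, 64.2% ± 2.88 and 70.4% ± 1.55 of the counts, with the widest spread in control libraries, from 46.6% to 81.8%. Gas5 lies at chr1:161034422-161038539 on the plus strand with 25 annotated transcripts and overlaps Zbtb37 on the other strand by 428 bases, so its split among models is uncertain. Of 7 glucocorticoid receptor and response genes, 6 were tested. With the block, 1 of them was called, beside 0.387% of all genes for Tsc2 siRNA. It was Dusp1, a phosphatase gene, at 252 ± 123 CPM in the controls and 368 ± 114 CPM after Tsc2 siRNA (SD, n = 3 each). Its log2 fold change was 0.63 (SE 0.11, edgeR adjusted p = 0.017) with the block and 0.55 (SE 0.44, adjusted p = 1.00) without it. The receptor gene Nr3c1 was at 246 ± 60.3 CPM in the controls, 260 ± 61.2 CPM after Chd8 siRNA and 245 ± 55.8 CPM after Tsc2 siRNA. Sgk1, a kinase gene of the response, was at 63.6 ± 3.31, 62.0 ± 4.38 and 62.8 ± 9.07 CPM.

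Snhg1, the next snoRNA host, was also below every control after Chd8 siRNA. The controls had 3.05, 4.13 and 7.16 CPM, the Chd8 siRNA libraries 2.65, 2.49 and 2.76 CPM, and the Tsc2 siRNA libraries 2.39, 4.11 and 4.30 CPM. The Chd8 values were close together, whereas control replicate 3 stood well above the other controls. The log2 fold change was -0.86 (SE 0.37) and with the block -0.77 (SE 0.30), with edgeR adjusted p of 1.00 and 0.278. Without control replicate 3 it was -0.44, or -0.50 with the block. For Tsc2 siRNA the value was -0.41 (SE 0.36) with all libraries and 0.01 without control replicate 3.

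Snhg12 lay between 1.73 and 3.66 CPM and its groups overlapped. The control libraries had 2.75, 2.16 and 2.36 CPM, the Chd8 siRNA libraries 2.51, 2.17 and 1.73 CPM and the Tsc2 siRNA libraries 2.56, 3.66 and 2.49 CPM. The log2 fold changes with the block were -0.20 (SE 0.34) and 0.24 (SE 0.33), with an edgeR adjusted p of 0.873 in both.

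As a family, 15 of 18 listed snoRNA host genes were tested, and none was called. With the block, their median log2 fold change was -0.47 after Chd8 siRNA, with 12 of 15 below 0, and -0.18 after Tsc2 siRNA, with 9 of 15 below 0. Below 0 were also 52.3% of all tested genes and 62.3% of the long non-coding ones for Chd8 siRNA, and 51.7% and 61.4% for Tsc2 siRNA. The 3 hosts described above are on this list, and 4 of its 15 genes, Gas5 and Snhg1 included, had Chd8 siRNA libraries that all lay below the controls, beside the 4.92% of all tested genes for which this held. The 10 factors of nonsense-mediated decay, the pathway that degrades such spliced host RNAs, had medians of -0.05 and 0.00, and none was called.

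Among the 6 RNAs not chosen by their values, 2 (Gas5 and Snhg1) had Chd8 siRNA libraries all below the controls, beside 4.92% of the tested genes, and 1 (Meg3) had Tsc2 siRNA libraries all below the controls, beside 4.23%. Of these 6, Gas5 alone had Chd8 siRNA libraries all below the Tsc2 siRNA libraries, beside 4.42%. None of the 6 was called by edgeR without the block, when no gene at all passed an adjusted p of 0.05 with a fold change of 1.5. That background was 0.0% in each contrast, although 622 genes (3.82%) had an unadjusted p under 0.05 for Chd8 siRNA, 425 (2.61%) for Tsc2 siRNA and 504 (3.1%) between the knockdowns, and the DESeq2 Wald test called 9 (0.0553%), 6 (0.0369%) and 5 (0.0307%) genes. With the block, 87 genes (0.535%), 63 (0.387%) and 36 (0.221%) were called. Genes called lower made up 0.289% of those tested in the Chd8 contrast and 0.197% in the Tsc2 contrast, and none of the 6 was among the genes called in any contrast. Neat1 and Kcnq1ot1 are left out of these counts, since values of the same contrasts chose them. Between the knockdowns, the other 5 of these 6 had blocked log2 differences of -0.44 (Snhg12) to 0.20 (Meg3), with edgeR adjusted p from 0.694 to 0.974.

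**Figure D3:**
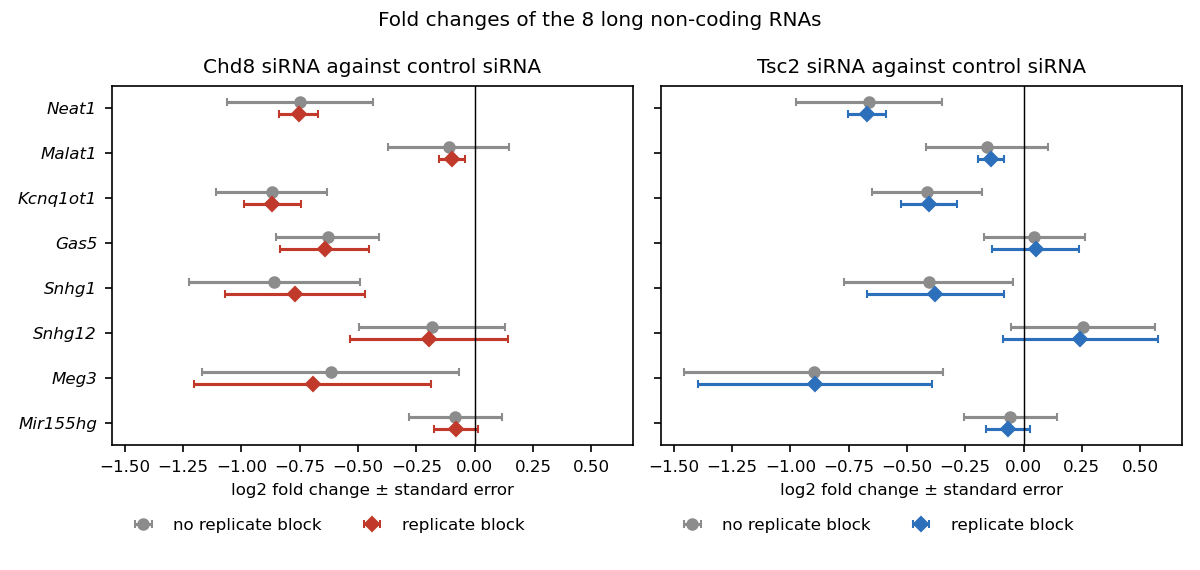
Log2 fold changes (horizontal axes, with standard errors) of the 8 RNAs for Chd8 siRNA (left) and Tsc2 siRNA (right) against control siRNA, from edgeR without (circles) and with (diamonds) the replicate number as a block. Of the 6 RNAs not chosen by their values, 6 were below 0 in the Chd8 contrast and 4 in the Tsc2 contrast, and the block narrowed the errors of Neat1, Malat1, Kcnq1ot1 and Mir155hg most.

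Meg3, a maternally expressed RNA of the Dlk1-Dio3 imprinted domain (chr12:109541001-109571726, plus strand), was scarce. The controls had 1.66, 2.96 and 2.75 CPM, the Chd8 siRNA libraries 1.61, 0.446 and 2.67 CPM, and the Tsc2 siRNA libraries 1.20, 1.35 and 1.38 CPM. Tsc2 libraries lay below all controls, and Chd8 siRNA replicate 2 stood apart with only 7 counts (95% exact Poisson interval 2.81 to 14.4, for counting error only). The log2 fold changes were -0.90 (SE 0.55) for Tsc2 siRNA and -0.62 (SE 0.55) for Chd8 siRNA, and with the block edgeR adjusted p was 0.582 and 0.624. Without Chd8 siRNA replicate 2, the value for Chd8 siRNA was -0.19. Neuron markers, from cells in which Meg3 is abundant, summed to 4.22 to 15.2 CPM in the controls, 2.61 to 9.34 CPM after Chd8 siRNA and 2.61 to 3.37 CPM after Tsc2 siRNA, and 3 of the 5 were high enough to be tested. Fibroblast, pericyte and endothelial markers summed to 20.3 to 69.2, 18.6 to 31.4 and 15.7 to 50.3 CPM. With the block, 1 of the 4 tested was called lower after Chd8 siRNA, beside 0.289% of all tested genes, and none after Tsc2 siRNA. It was Col1a1, at -1.31 on the log2 scale (edgeR adjusted p = 0.022, and 1.00 without the block), while Pdgfrb was at -0.28 and Pecam1 at -0.19. Their part in the Meg3 values was not tested. Of the other 7 genes listed for the domain, 4 were tested and none was called.

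Mir155hg overlapped between the 3 groups and differed between replicate numbers. The controls had 54.6, 75.1 and 72.3 CPM for replicates 1, 2 and 3, the Chd8 siRNA libraries 53.3, 62.3 and 74.9 CPM, and the Tsc2 siRNA libraries 49.0, 72.5 and 72.6 CPM. Replicate 1 was the lowest library of each group. The log2 fold changes with the block were -0.08 (SE 0.10) and -0.07 (SE 0.09), with edgeR adjusted p of 0.798 and 0.883. Of 7 miR-155 target genes and 12 NF-kB and AP-1 response genes, all tested, none was called in either contrast.

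The replicate number, which played no part in choosing the genes, was tested over the 9 libraries with siRNA in the model. At an adjusted p of 0.05 with no fold threshold, it was called for 4076 of 16273 genes (25.0%) and for 4 of the 8 RNAs. Malat1 had mean levels of 7641, 5157 and 4705 CPM at numbers 1, 2 and 3 (edgeR adjusted p = 2.88e-07). Neat1 had 319, 237 and 168 CPM (adjusted p = 2.51e-06 by edgeR). Kcnq1ot1 went the other way, with 18.5, 18.7 and 27.1 CPM (edgeR adjusted p = 0.00359), and Mir155hg was at 52.3, 70.0 and 73.3 CPM (edgeR adjusted p = 0.00241). Malat1 and Neat1 were thus highest in replicate 1 in each of the 3 groups, Kcnq1ot1 highest in replicate 3 and Mir155hg lowest in replicate 1. Each of these 4 calls was also made with any single library left out. Gas5, Snhg1, Snhg12 and Meg3 were not called, with edgeR adjusted p between 0.203 and 0.784. Of the 12 NF-kB and AP-1 response genes, 11 were called for the replicate number, as were 5 of 6 tested microglia markers, 6 of 7 astrocyte markers, 4 of 4 fibroblast, pericyte and endothelial markers, 4 of 4 oligodendrocyte lineage markers and 1 of 3 neuron markers. The microglia marker sum was highest in replicate 1 of each group, at 1347 to 1435 CPM beside 872 to 1105 CPM in replicates 2 and 3. Its members did not share this order, since Itgam was at 682 to 760 CPM in replicate 1 libraries and 264 to 433 CPM in the others, and Trem2 at 61.8 to 82.2 CPM and 107 to 141 CPM. The part of activation state or other cell types in these differences was not tested.

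**Figure D4:**
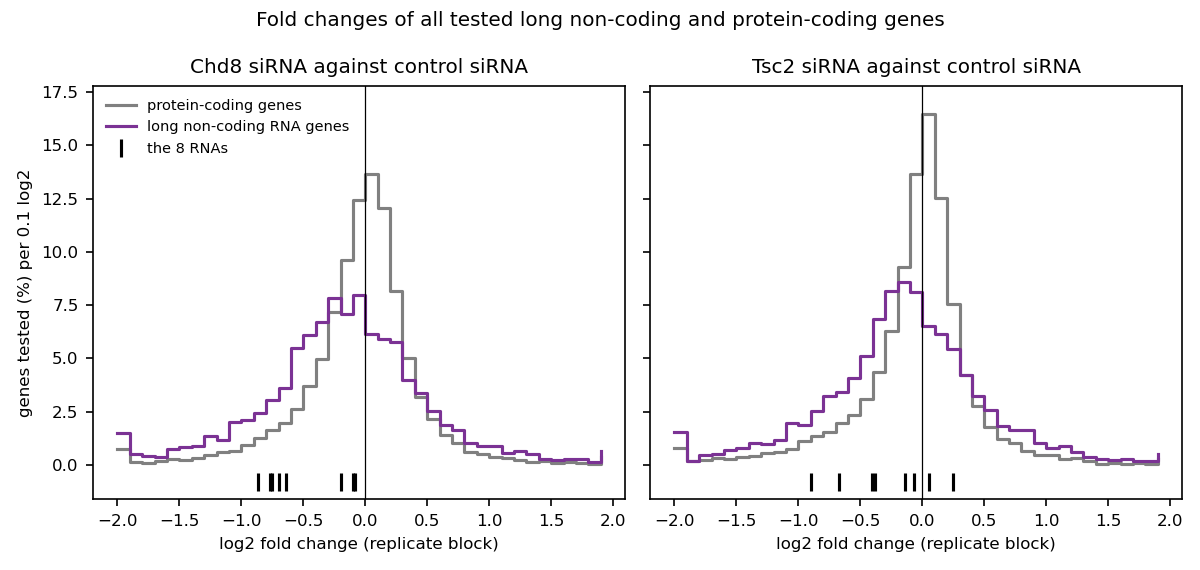
Share of tested genes (vertical axis, percent) per bin of 0.1 in log2 fold change (horizontal axis, with the replicate block) for 12891 protein-coding and 2650 long non-coding RNA genes, with ticks for the 8 RNAs and with values beyond 2 in the end bins. The long non-coding curve sat left of the protein-coding one, with medians of -0.16 for Chd8 siRNA and -0.14 for Tsc2 siRNA.

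Long non-coding RNA genes as a class had medians below 0 in both contrasts. The 2 contrasts share their control libraries and are not independent, and with the block the class median between the knockdowns was -0.03. The median log2 fold change of the 2650 tested with the block was -0.16 in the Chd8 contrast and -0.14 in the Tsc2 contrast, beside 0.00 and 0.00 for 12891 protein-coding genes, and 62.3% and 61.4% of them were below 0. The 6 RNAs not chosen by their values had medians of -0.42 and -0.10. The long non-coding genes were also less abundant, with a median level of 0.977 CPM beside 7.83 CPM for protein-coding genes, and the part of abundance in this shift was not tested. Leaving out Neat1 and Kcnq1ot1, 2 long non-coding genes were called lower for Chd8 siRNA with the block, Gm37498 (-1.19, SE 0.22) and Gm42819 (-0.65, SE 0.14), and 1 was called higher, Gm48422 (1.25, SE 0.27), beside 0.289% of all tested genes called lower and 0.246% called higher. For Tsc2 siRNA 3 were called lower, Gm37833 (-1.19, SE 0.25), Gm42793 (-0.92, SE 0.19) and AC163101.1 (-1.32, SE 0.26), and none higher, beside 0.197% and 0.19% of all tested genes. Among 82 tested long non-coding genes with 1 exon of more than 5000 bases, a class set after values had been seen, medians were -0.26 and -0.18, with 59 and 60 below 0. The share of all counts in transcripts with a retained intron, at 3.30% to 4.20% in the 9 libraries, was lower in replicate 2 of every group.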

How the data were processed

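RNA from 9 microglial samples was sequenced as total RNA, for which the labels and the study's methods name different library kits. The authors quantified transcripts with Salmon 0.14.1 (per the labels, on mm10) and deposited estimated counts per transcript. Of all values in a library, zeros included, 26.8% to 32.1% were not whole. Here 139852 of 140948 transcripts were matched to GENCODE vM21 and summed to genes, then rounded; the 1096 unmatched held 0.27% of counts. With 3 libraries a group, totals of 16913448 to 33213801 set a floor of 3 counts at 0.0903 to 0.177 CPM. edgeR 4.0.16 (TMM, quasi-likelihood F test, Benjamini-Hochberg over 16273 genes passing its expression filter) compared the 3 groups in one fit, with a call at adjusted p of 0.05 and a fold change of 1.5. Calls for the replicate number used the adjusted p of 0.05 alone, with no fold threshold. Libraries of the same number deviated together from their group means (r = 0.244 to 0.521 over 9 pairs). Over 18 other pairs r was -0.381 to 0.0363. Centring each group on its mean pushes these other values down, so they are no independent contrast. Blocked fits are given beside the results for this reason, although what a replicate number marks is not given. DESeq2 1.42.0, other size factors, no filter and each library left out were alternatives. On simulated counts with 200 genes changed by 2 on the log2 scale in Chd8 siRNA against control (16273 genes) and a replicate effect, the fit without the block recovered 56 genes (2 false calls) and the blocked fit 102 (10 false calls), and with no replicate effect the numbers were 107 (4 false) and 98 (8 false). The members and gene lists were chosen with earlier results of these data known. The genes named are the 8 members, members of the lists, the 3 genes most like Neat1, Malat1 and Kcnq1ot1, and called long non-coding genes. A further microglia marker of the list is not reported here.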

Additional observations from a re-analysis of the deposited data

How the results depend on the processing

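Counts of called genes depended most on the replicate block. They were 0 without it for Chd8 siRNA, Tsc2 siRNA and the knockdowns against each other, and 87, 63 and 36 with it, 2 and 1 (and 0 between knockdowns) without the low-count filter, and 9, 6 and 5 by the DESeq2 Wald test. With 1 library left out they stayed at 0 without the block and ran with it from 20 to 108, 7 to 131 and 4 to 130, the lowest for both control contrasts without control replicate 3. Counts for the replicate number ran from 3063 to 4576. The long form's share of Neat1 counts was 72.5%, 61.6% and 58.5% (control, Chd8, Tsc2), ran from 69.9 to 74.2%, 59.2 to 62.9% and 55.2 to 62.5% with 1 library left out, and was 26.7%, 18.4% and 16.3% per length. With 1 library left out, log2 fold changes without the block ran from -1.06 to -0.52 (Chd8) and -0.90 to -0.44 (Tsc2) for Neat1 and from -1.07 to -0.64 and -0.58 to -0.19 for Kcnq1ot1, so their direction was kept. Values near 0 changed sign in at least 1 of the fits with and without the block, and the ranges here span both fits. Malat1 ran from -0.33 to 0.18 (Chd8), -0.37 to 0.14 (Tsc2) and -0.18 to 0.26 (between knockdowns), Gas5 for Tsc2 from -0.035 to 0.18, Snhg1 for Tsc2 from -0.65 to 0.011, Meg3 between knockdowns from -0.31 to 0.76, and Mir155hg from -0.21 to 0.027 (Chd8), -0.18 to 0.11 (Tsc2) and -0.19 to 0.082 (between knockdowns). With the block alone, Malat1 kept its sign, from -0.15 to -0.046 (Chd8), -0.19 to -0.087 (Tsc2) and 0.012 to 0.082 (between knockdowns). Snhg1 and Mir155hg also kept theirs with the block for Tsc2. The causes of the sign changes were not tested. Gas5 came nearest to a call, with adjusted p of 0.0753 (Chd8 siRNA against control) and 0.0588 (against Tsc2 siRNA) in blocked edgeR fits with a library left out. The block changed no call among the 6 genes tested. Meg3, Snhg1 and Snhg12 had as few as 7, 39 and 34 counts in a library.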

Other observations

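Malat1 levels were followed most closely over the 9 libraries by Dusp7 (Pearson r = 0.983), Rexo1 (r = 0.981) and Klf13 (r = 0.978), all of them protein-coding genes on other chromosomes. These correlations are descriptions over libraries that share replicate numbers, and Malat1 itself differed between numbers.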
